A study of Mus musculus with 18 samples.

Results

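The cytosolic tRNAs for leucine and serine were followed in testes of adult mice: every listed small RNA site whose name begins with tRNA-Leu- or tRNA-Ser- was taken, which gave 16 of the 192 sites in the small RNA table. Of these, 12 lay in 10 tRNA-Leu genes of 5 anticodons and 4 lay in 4 tRNA-Ser genes of 3 anticodons. The libraries were made from testis RNA of WT mice and of mice labelled Nsun7 knockout, with 3 small RNA libraries per genotype and no treatment named. The labels give no strain, no description of the knockout allele and no age beyond adult, and the tissue is whole testis, a mixture of germ cells and somatic cells. Whether the 3 libraries per genotype are from separate animals is not stated, so p-values measure how far these libraries differ, a spread that may be technical. In bulk RNA, a lower level in every cell cannot be told apart from a different mix of cells.

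Leucine and serine tRNAs are the large cytosolic families with a long variable arm, an extra stem and loop between the anticodon stem and the T stem. The methyltransferase NSUN2 places 5-methylcytosine (m5C) next to the variable region of many tRNAs, and in tRNA-Leu-CAA, whose gene carries an intron, it also methylates the wobble cytosine of the anticodon. ALKBH1 can oxidise that wobble m5C further, to hydroxymethylcytosine and formylcytosine. NSUN7 belongs to the same protein family as NSUN2, and the series title describes it as catalytically inactive on RNA. The genotype comparison asks whether the level at any of these sites depends on Nsun7.

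In ultrafast bisulfite sequencing, unmethylated cytosine is converted and reads as T, and the share of covering reads that still show C is the m5C level. Hydroxymethylcytosine also reads as C, and formylcytosine reads largely as converted cytosine, so neither is separated from m5C or from unmodified cytosine here. Summed over the listed small RNA sites, coverage was 4674265 to 5096438 per library, and the Leu and Ser sites held 9.92% to 12.7% of it. Coverage at single Leu and Ser sites ran from 11 to 385732 reads, and all 16 sites had at least 10 reads in all 6 libraries. None of the listed mRNA sites lay in Nsun7 (0 of 251), so these tables give no check of the knockout. Listed mRNA sites were present in 3 of 9 germ cell genes (Piwil1, Adam2 and D1Pas1), in Insl3 of 3 Leydig cell genes and in Amhr2 of 4 Sertoli cell genes, which shows only that these testis transcripts were read. Of 28 genes for enzymes that charge, modify or process Leu and Ser tRNAs, among them Lars1, Sars1, Nsun2, Alkbh1, Thumpd1 and Mettl6, 0 had a listed mRNA site. With only 251 listed mRNA sites in all, a gene without one is the usual case. The share over all genes was not computed, and this count is no result about these enzymes.

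The level differed widely between sites, and among libraries of one site it varied most at the shallow ones, by 29.3 points at tRNA-Ser-AGA-2-2 and 0.189 at tRNA-Leu-AAG-1-3 from the lowest to the highest library. Over the mean of 6 libraries, 7 sites stood at 90% or more and 3 stood below 50%, and the whole range ran from 14.2% to 97.2%. The mean over the 12 Leu sites was 72.5% ± 1.76 in WT against 72.3% ± 1.26 in the knockout, and over the 4 Ser sites 80.1% ± 3.52 and 81.8% ± 2.01 (SD, n = 3). The 123 sites of the other cytosolic tRNAs averaged 72.4% ± 0.653 and 73.1% ± 0.185. When the 16 sites were put in order of their level, the ranges over the 6 libraries overlapped for 8 of the 15 neighbouring pairs and lay apart for 7.

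**Figure D1:**
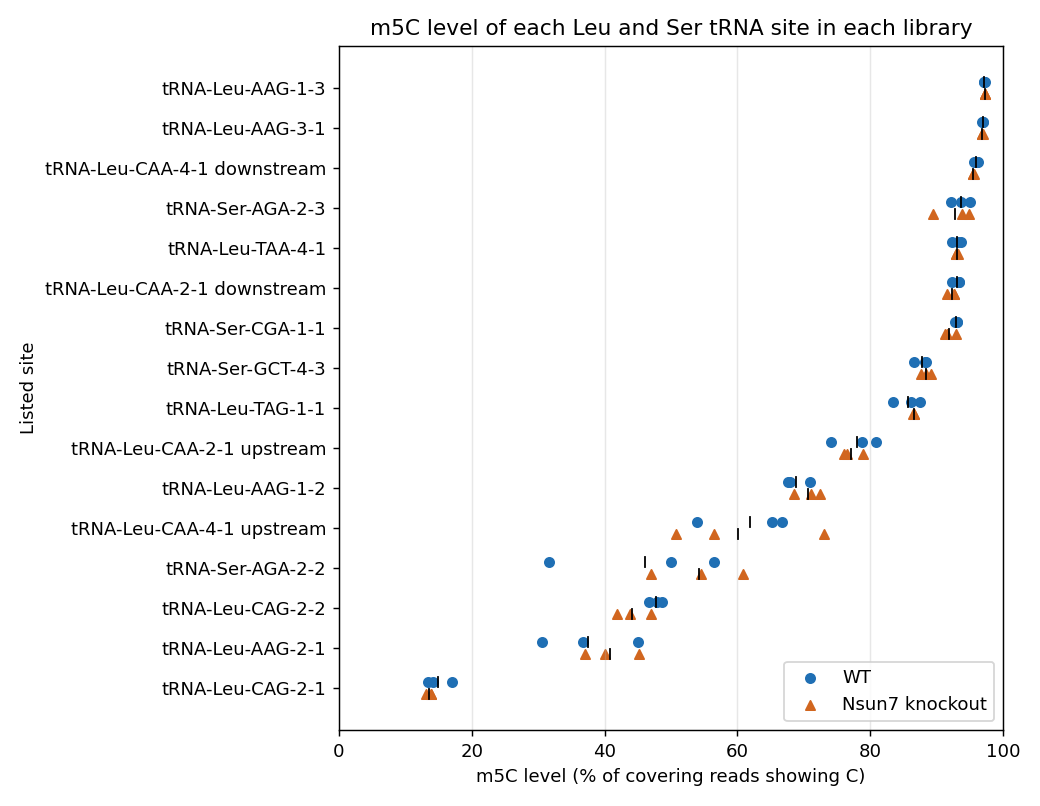
Each row is 1 listed site, ordered by its mean level, and the x axis is the m5C level in percent of covering reads. Circles are the 3 WT libraries, triangles the 3 Nsun7 knockout libraries and black ticks the genotype means. The rows run from 97.2% at tRNA-Leu-AAG-1-3 to 14.2% at tRNA-Leu-CAG-2-1, and the genotypes overlap in all rows but tRNA-Leu-CAA-4-1 downstream.

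Each tRNA-Leu-CAA gene had 2 listed sites, and the upstream one had the lower m5C level in every library. That level is the share of reads showing C, which does not separate formylcytosine from unmodified cytosine. The part of formylcytosine in the gap was not tested. The gene tRNA-Leu-CAA-2-1 had sites at positions 21384408 and 21384453 of chromosome 13, 45 nucleotides apart, and tRNA-Leu-CAA-4-1 had sites at 22099042 and 22099088 of the same chromosome, 46 apart. Coordinates are those of the table, and GRCm39 is the build named in the submitters' processing notes. The table marks all 192 sites with a plus sign, so the sign may not be the strand of a gene. The lower coordinate was taken as upstream, and the strand of the Leu-CAA genes was not checked. In 9 tRNA genes of other amino acids, a single site preceded a neighbouring pair of sites by 9 or 10 nucleotides, and the reverse order occurred in 0, which is the order of the anticodon loop before the variable region. With the intron between the sites, this genomic spacing would make the upstream Leu-CAA site a candidate for the wobble position. The downstream site would then be a candidate for the variable region next to the T stem. No tRNA sequence was used here to place the sites or the intron.

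The upstream tRNA-Leu-CAA-2-1 site stood at 78.8%, 80.9% and 74.1% in the WT libraries against 76.0%, 78.9% and 76.5% in the knockout libraries, with 414 to 540 reads. Its downstream site stood at 93.4%, 93.4% and 92.3% in WT against 92.7%, 91.5% and 92.5% in the knockout, read by 81432 to 109121 reads. The genotypes overlapped at both sites, while the upstream and downstream values did not overlap. Within a library the upstream site was lower by 12.4 to 18.1 points, a mean difference of -15.1 ± 2.27 points (SD over 6 libraries), lower in 6 of 6 libraries. The exact sign-flip permutation test, two-sided, gave p = 0.03125 before and after Benjamini-Hochberg adjustment over the 2 genes, the smallest p that 6 libraries can give. The test takes the 6 libraries as independent. With same-numbered WT and knockout libraries averaged, because their levels deviated together, 3 units remain. They gave an exact sign-flip p of 0.25, the smallest they can give, so no gap of any size could be called with them. The call in either Leu-CAA gene therefore rests on taking the 6 libraries as independent.

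In tRNA-Leu-CAA-4-1 the gap between the sites was wider and less precisely measured. The upstream site stood at 66.7%, 65.2% and 53.8% in WT against 56.4%, 73.0% and 50.8% in the knockout, at only 46 to 78 reads, where the widest exact binomial (Clopper-Pearson) 95% interval of a library reached 14.4 points to each side on average. The downstream site stood at 96.2%, 96.0% and 95.6% in WT against 95.6%, 95.5% and 95.5% in the knockout, at 27024 to 40487 reads. Among the upstream values the highest and the lowest both came from the knockout. The mean difference between the sites was -34.7 ± 8.48 points (SD over 6 libraries), lower upstream in 6 of 6 libraries, with the same exact sign-flip p of 0.03125. With 5 libraries the exact sign-flip test cannot go below p = 0.0625, so leaving out any library ends the call for both genes while the direction stays.

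The mean gap between the Leu-CAA sites was of similar size in both genotypes. For tRNA-Leu-CAA-2-1 it was -15.1 ± 2.87 points in WT against -15.1 ± 2.16 in the knockout (SD, n = 3, exact permutation p = 1.0). For tRNA-Leu-CAA-4-1 it was -34.0 ± 6.74 and -35.4 ± 11.5 (SD, n = 3, exact permutation p = 0.9). That test takes the libraries as unpaired and, with 3 against 3, cannot go below 0.1. The spread at tRNA-Leu-CAA-4-1 would hide a large change. At its upstream site alone, the 95% limma interval of the knockout minus WT level ran from -20.5 to 16.8 points.

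The sites of each Leu-CAA gene also differed in depth. The downstream site was covered 156 to 239 times as deeply as the upstream one in tRNA-Leu-CAA-2-1, and 411 to 689 times in tRNA-Leu-CAA-4-1. The level upstream thus rests on few of the reads assigned to the gene, and the part of this depth gap in the level gap was not tested. Whether reads over both sites come from the same RNAs, precursor or mature, was not tested either. Upstream coverage as a percent of downstream coverage was 0.427%, 0.419% and 0.565% in WT against 0.472%, 0.643% and 0.512% in the knockout for tRNA-Leu-CAA-2-1, with the genotypes overlapping (exact permutation p = 0.4). For tRNA-Leu-CAA-4-1 it was 0.148%, 0.145% and 0.189% in WT against 0.243%, 0.233% and 0.211% in the knockout, so every knockout library was above every WT library, at the smallest exact permutation p of 0.1. These ratios were computed after the coverage values had been seen.

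**Figure D2:**
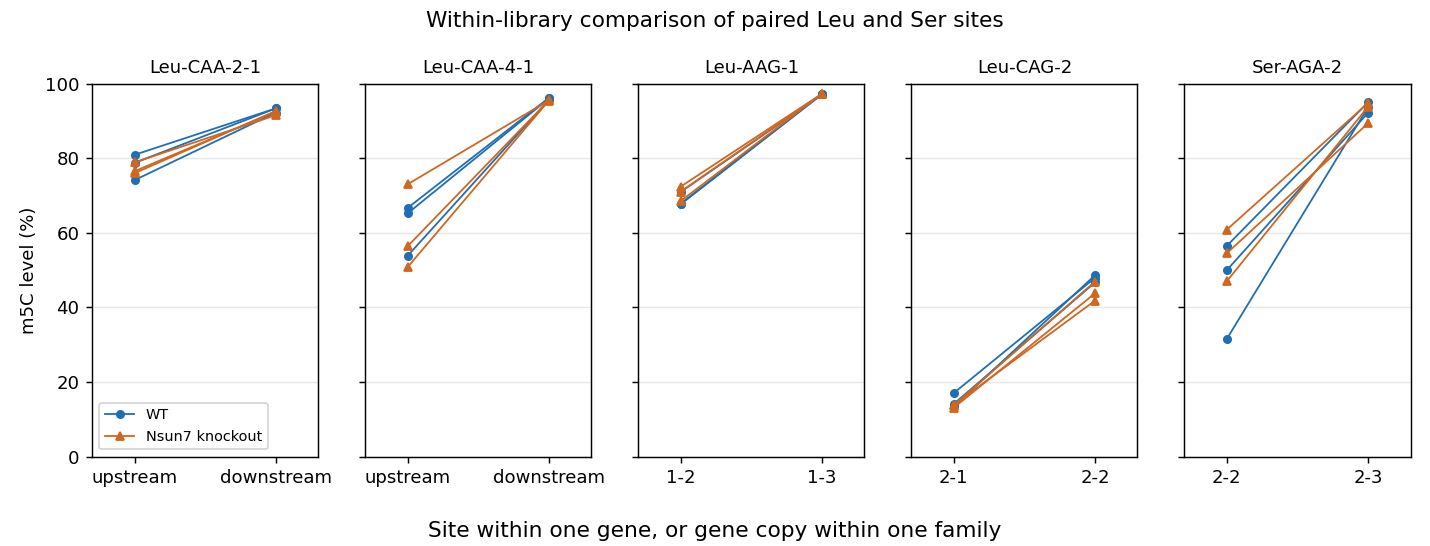
Each line joins 2 values from 1 library: the upstream and downstream site of a tRNA-Leu-CAA gene (left 2 panels), or the sites of 2 gene copies of one family (right 3 panels). The y axis is the m5C level in percent, with WT in blue and the Nsun7 knockout in orange. All 6 lines slope the same way in each of the 5 panels.

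The other leucine isoacceptors had 1 listed site per gene. tRNA-Leu-AAG, whose wobble adenosine is deaminated to inosine, had 4 sites, which spread over most of the range. tRNA-Leu-AAG-1-3 (chromosome 14, position 51301396) was the most methylated and the deepest of the 16, at 97.2%, 97.1% and 97.1% in WT against 97.3%, 97.2% and 97.3% in the knockout, and alone took 5.65% to 7.66% of the coverage summed over all listed sites of a library. tRNA-Leu-AAG-3-1 (chromosome 13, position 21354432) stood at 97.0%, 96.9% and 96.9% in WT against 96.8%, 96.8% and 97.0% in the knockout at 26360 to 43580 reads. At both sites the whole spread over 6 libraries was under 1 point.

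The remaining tRNA-Leu-AAG sites were lower and shallower. tRNA-Leu-AAG-1-2 (chromosome 13, position 21354262) stood at 67.8%, 71.0% and 67.7% in WT against 72.4%, 71.1% and 68.5% in the knockout, at 159 to 255 reads. tRNA-Leu-AAG-2-1 (chromosome 7, position 120516796) stood at 36.8%, 45.1% and 30.6% in WT against 40.0%, 45.2% and 37.1% in the knockout, at 42 to 68 reads. The genotypes overlapped at both, and the WT libraries of tRNA-Leu-AAG-2-1 held both its lowest value and nearly its highest.

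tRNA-Leu-CAG, which reads the CUG codon, had the least methylated of the 16 Leu and Ser sites, and it was not among the shallow ones. tRNA-Leu-CAG-2-1 (chromosome 1, position 170866240) stood at 13.4%, 17.1% and 14.1% in WT against 13.1%, 13.9% and 13.8% in the knockout, at 5124 to 7922 reads. WT replicate 2 was the highest, and without that library the groups still overlapped. tRNA-Leu-CAG-2-2 (chromosome 8, position 95430316) stood at 48.7%, 47.9% and 46.7% in WT against 43.8%, 41.8% and 46.9% in the knockout, at 396 to 633 reads. Knockout replicate 3 there lay above the lowest WT library and the other knockout libraries lay below all WT libraries.

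The single sites of tRNA-Leu-TAG and tRNA-Leu-TAA were highly methylated. tRNA-Leu-TAG-1-1 (chromosome 11, position 69015123) stood at 83.4%, 87.4% and 86.1% in WT against 86.5%, 86.6% and 86.6% in the knockout, at 8886 to 11655 reads. tRNA-Leu-TAA-4-1 (chromosome X, position 159918187) stood at 93.6%, 92.3% and 93.2% in WT against 93.0%, 93.2% and 92.9% in the knockout, at 2652 to 4849 reads. In both, the WT libraries spread more widely than the knockout libraries, which lay inside the WT range.

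Of the serine tRNAs, 3 of 4 sites were near 90%. tRNA-Ser-GCT, which reads the AGC and AGU codons, had the deepest one, tRNA-Ser-GCT-4-3 (chromosome 13, position 23706096; 34882 to 56075 reads), at 86.6%, 88.4% and 88.2% in WT against 88.3%, 89.2% and 87.6% in the knockout. tRNA-Ser-CGA-1-1 (chromosome 11, position 69001801; 644 to 959 reads) stood at 93.0%, 93.0% and 92.7% in WT against 92.8%, 91.5% and 91.3% in the knockout. The genotypes overlapped at each, at tRNA-Ser-CGA-1-1 only through knockout replicate 1.

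The tRNA-Ser-AGA sites lay far apart from each other. tRNA-Ser-AGA-2-3 (chromosome 13, position 22103441; 151 to 254 reads) stood at 93.7%, 92.2% and 95.03% in WT against 93.8%, 94.8% and 89.4% in the knockout. tRNA-Ser-AGA-2-2 (chromosome 11, position 68928359) stood at 31.6%, 50% and 56.5% in WT against 47.1%, 60.9% and 54.5% in the knockout. It was the shallowest of the 16 sites, at 11 to 23 reads, and the exact binomial 95% interval of its least precise library averaged 29.9 points to each side.

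In the tRNA gene nomenclature, genes that share anticodon and first number encode the same mature tRNA, and the last number tells the copies apart. The table lists 2 copies in each of 3 Leu and Ser families, tRNA-Leu-AAG-1, tRNA-Leu-CAG-2 and tRNA-Ser-AGA-2, with levels that differed in all 6 libraries. tRNA-Leu-AAG-1-3 exceeded tRNA-Leu-AAG-1-2 by 27.5 ± 1.97 points, and tRNA-Leu-CAG-2-2 exceeded tRNA-Leu-CAG-2-1 by 31.8 ± 2.50 points (SD over 6 libraries). tRNA-Ser-AGA-2-3 exceeded tRNA-Ser-AGA-2-2 by 43.1 ± 10.5 points. The exact sign-flip permutation test gave p = 0.03125 for each, also after Benjamini-Hochberg adjustment over the 3 families, the smallest it can give, and these pairs were set up after their values had been seen. With same-numbered libraries averaged the exact sign-flip p was 0.25 in each family, the smallest 3 units can give. Reads of a mature tRNA shared by several genes cannot be assigned to one copy, so a level listed for a copy depends on how the authors placed such reads, which no source used here states, and whether the listed sites of 2 copies are the same position of the tRNA was not tested.

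The deeper copy was the more methylated one in tRNA-Leu-AAG-1 (median coverage 318342 against 197.5 reads) and tRNA-Ser-AGA-2 (199.5 against 20.5). It was the less methylated one in tRNA-Leu-CAG-2 (5878.5 against 455 reads). Among the other cytosolic tRNAs, 10 families had at least 2 listed copies, and the highest and lowest copy, each averaged over its sites, differed by 3.99 to 75.9 points. The gap was at least 20 points in 6 of those 10 families, and in 3 of the 3 Leu and Ser families.

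**Figure D3:**
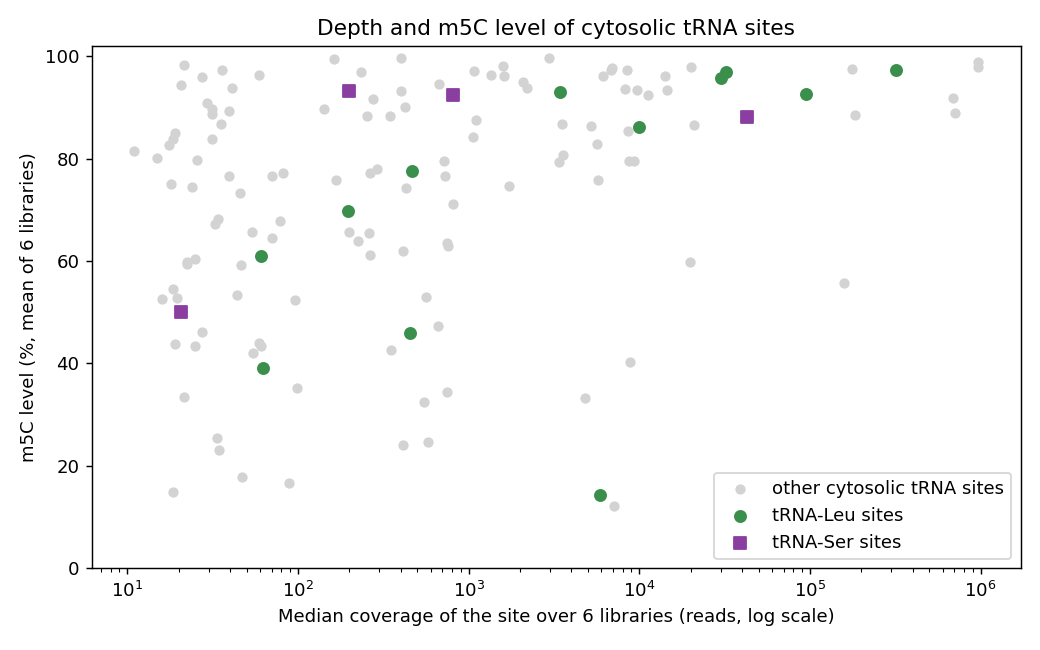
Each point is 1 cytosolic tRNA site, with its median coverage over 6 libraries on a log axis and its mean m5C level in percent. Circles are Leu sites, squares Ser sites and grey points the 123 sites of other cytosolic tRNAs. Among Leu and Ser sites with a median coverage of at least 1000 reads, 7 of 8 lie above 80%, and the exception is tRNA-Leu-CAG-2-1 at 14.2%.

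Depth and level went together among these sites as a description. Of the 8 Leu and Ser sites with a median coverage of at least 1000 reads, 7 stood at 80% or more, and of the 8 shallower ones 2 did. The medians were 92.8% and 65.4%. The other cytosolic tRNA sites showed medians of 91.8% over 41 deep sites and 69.6% over 82 shallower ones. Sites share libraries and genes, and the part of read placement in this pattern was not tested.

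Levels at 0 of the 16 Leu and Ser sites differed between genotypes by the quasi-binomial model, Benjamini-Hochberg adjusted over the whole table, in which 0.0% of 184 tested sites passed. The lowest adjusted p among the 16 was 0.799. An unadjusted p under 0.05 was found at 0 of the 16, against 7 of the 184 tested sites. The limma test on the levels called 0 of the 16 as well. With dispersions moderated over sites, 0 passed after adjustment and 2 of the 16, tRNA-Leu-AAG-1-3 and the downstream site of tRNA-Leu-CAA-4-1, had an unadjusted p under 0.05, against 4.35% of all sites. The knockout mean was lower than the WT mean at 10 of the 16 sites, against 47.9% of all 192 sites, and higher at 6. The median difference was -0.239 points over the 16 sites and 0.000918 points over all sites. In size, the difference was under 1 point at 9 of the 16 sites and between 1 and 4 points at 6, and the other was the shallow tRNA-Ser-AGA-2-2 at 8.12 points. Without WT replicate 1 that difference was 0.897 points, and without WT replicate 3 it was 13.4.

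The genotypes lay wholly apart at 1 of the 16 sites, the downstream site of tRNA-Leu-CAA-4-1, where all knockout libraries were lower. Of all 192 listed sites, 5.73% lay apart in that direction. Its level was 95.9% ± 0.282 in WT against 95.5% ± 0.0432 in the knockout (SD, n = 3). The difference was -0.429 points, and the nearest libraries lay 0.0761 points apart. Its adjusted p was 0.799 in the quasi-binomial model. The downstream site of tRNA-Leu-CAA-2-1 was also lower in the knockout on average, by -0.758 points, with overlapping libraries and an adjusted p of 0.877. That difference was -0.406 points without knockout replicate 2 and -1.13 without WT replicate 3.

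**Figure D4:**
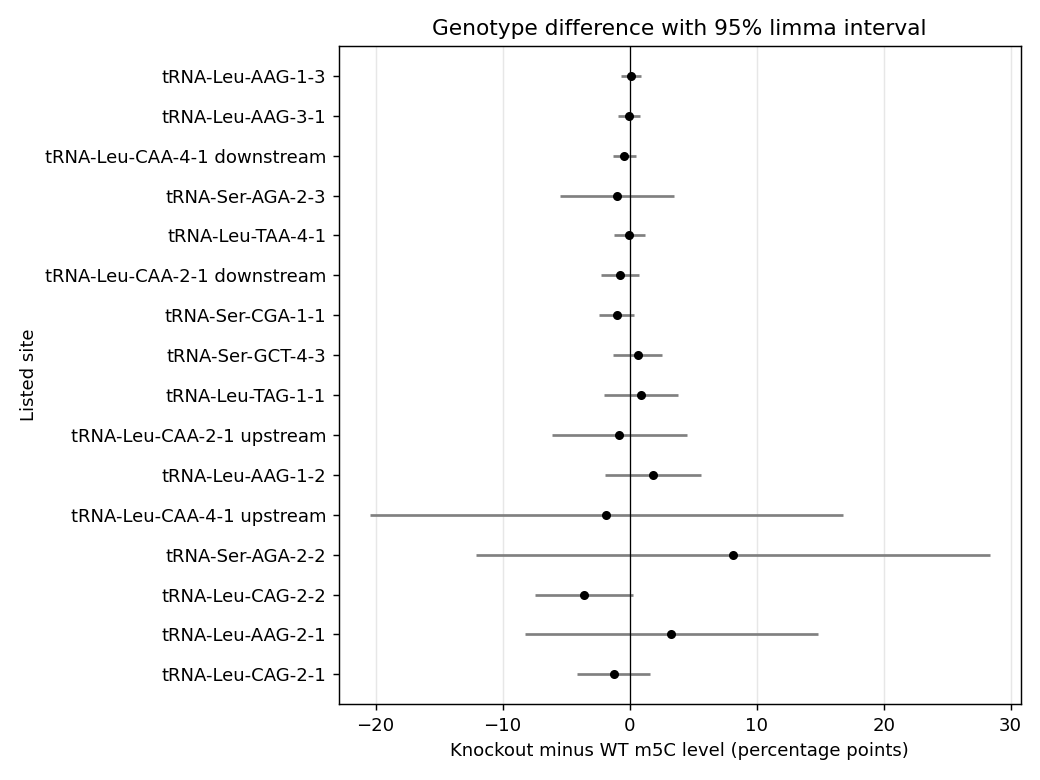
Points are knockout minus WT differences of mean m5C level in percentage points, with 95% limma intervals as bars, in the order of the plot of levels by library. All 16 intervals include 0, and the widest belong to the shallow tRNA-Ser-AGA-2-2 and tRNA-Leu-CAA-4-1 upstream sites.

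The size of a loss that these data could hide depended on the site. The lower end of the 95% limma interval lay above a fall to 50% of WT at 16 of the 16 sites. At tRNA-Leu-AAG-1-3 its lower end was -0.709 points, 0.729% of the WT level, and at the upstream tRNA-Leu-CAA-2-1 site it was -6.09 points, 7.81% of the WT level. At the upstream site of tRNA-Leu-CAA-4-1 the interval ran from -20.5 to 16.8 points and so allowed a loss of 33.03% of the WT level. Wide relative bounds were not limited to shallow sites. At tRNA-Leu-CAG-2-1, with 5124 to 7922 reads and a low level, the lower end was -4.10 points, 27.6% of the WT level. limma shrinks variances towards a common value, so intervals at deep sites can be wider than their own spread. At shallow sites with a wide spread they can be narrower, so the loss allowed there can be larger than stated.

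Several deep sites spread more between libraries than counting error alone would give. The quasi-binomial dispersion, which is 1 where counting alone sets the spread, was 51.0 at the downstream site of tRNA-Leu-CAA-2-1, 29.9 at tRNA-Ser-GCT-4-3 and 18.9 at tRNA-Leu-TAG-1-1. It was 3.86 at tRNA-Leu-AAG-1-3, the deepest site. Among sites with a median coverage of at least 1000 reads, it was near 1 at tRNA-Leu-AAG-3-1 (0.936) and at tRNA-Leu-TAA-4-1 (1.33). Fisher's exact test on reads pooled per genotype, which does not count this spread, called 6 of the 16 sites, against 12.5% of all sites. Those 6 sites were tRNA-Leu-AAG-1-3, tRNA-Leu-CAG-2-1, tRNA-Leu-TAG-1-1, tRNA-Ser-GCT-4-3 and the downstream sites of both tRNA-Leu-CAA genes, all with at least 5124 reads in every library, and their differences were between -1.26 and 0.918 points.

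Coverage was compared between genotypes as a second readout, after the values had been seen. By edgeR's quasi-likelihood test over all 192 sites, 0 of the 16 sites changed (0.0% of all sites), with a lowest adjusted p of 0.635. At an unadjusted p under 0.05 there was 1 of the 16 sites by edgeR, against 13 of all 192 sites. By DESeq2 there were 0 of the 16, against 6 of all 192. The site by edgeR was the upstream site of tRNA-Leu-CAA-4-1. That site had a mean of 10.7 reads per 1000000 reads of listed coverage in WT against 13.9 in the knockout. Its edgeR log2 fold change, after TMM normalization, which those values lack, was 0.49, with a standard error of 0.20 derived from the F statistic. Coverage counts reads over a site and not tRNA molecules.

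The mitochondrial tRNAs for the same amino acids, which have no long arm, had 4 listed sites. mt-tRNA-Ser2 stood at 94.2% ± 0.848 in WT against 93.8% ± 0.303 in the knockout, and mt-tRNA-Leu1 at 94.7% ± 1.01 and 93.9% ± 0.419 (SD, n = 3). mt-tRNA-Leu2 had neighbouring sites at 21.5% ± 3.21 and 96.4% ± 0.381 in WT and, in the knockout, at 24.3% ± 2.65 and 96.6% ± 0.645 in the knockout.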

How the data were processed

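Small RNA from whole testis was converted with an ultrafast bisulfite reagent and sequenced with a small RNA kit, per the labels' protocols. The submitters' processing notes name cutadapt, Trimmomatic, HISAT2, Bowtie2, SAMtools and GRCm39. Roles, versions and how sites were chosen are not given in the sources used here. Deposited coverage and C counts are whole numbers of reads per site and library, per the file headers. The deposited level is a fraction, rounded by the authors to 2 decimals, and was replaced here by C counts over coverage, in percent. 0 per-sample columns were left unmapped.

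The quasi-binomial logistic model used each site's own dispersion, libraries with coverage of at least 10 and at least 2 per genotype, over all 192 sites, two-sided, with Benjamini-Hochberg adjustment at 0.05. Libraries fitted at 0% or 100% did not count towards residual degrees of freedom. limma 3.58.1 was run on levels, and edgeR 4.0.16 (TMM) and DESeq2 1.42.0 on coverage, in R 4.3.3. The edgeR filter removed no site. The code was tested on simulated data. Binomial intervals reflect counting error alone: without molecular identifiers, reads may repeat a molecule.

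Same-numbered WT and knockout libraries deviated together in level (residual correlations 0.262, 0.641 and 0.498 over 173 sites), all above the limit of 0.1, so the numbers were taken as pairing the libraries. Differently numbered libraries correlated at -0.551 to 0.308, and the highest of these, WT replicate 3 with knockout replicate 1, exceeded the lowest same-numbered value. For coverage they were 0.333, 0.293 and 0.0678, and it was not taken as paired. The sites, lists, tests and the rule for named sites (every Leu and Ser site, with library values) were chosen with earlier results of these data known. The large RNA table was not used here.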

Additional observations from a re-analysis of the deposited data

How the results depend on the processing

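The call of 0 Leu and Ser sites in level, and of 0 over the whole small RNA table, was the same with a coverage minimum of 20, with no minimum, with dispersions moderated over sites, with limma, with the replicate block and without any 1 library. The moderated version had 2 of the 16 sites at an unadjusted p under 0.05, tRNA-Leu-AAG-1-3 and the downstream site of tRNA-Leu-CAA-4-1. Fisher's exact test on pooled reads called 6 Leu and Ser sites and 24 sites of the whole table, and it leaves out the spread between libraries by construction. With the replicate block, which uses the pairing by number, no genotype call on levels changed. In coverage, which was not taken as paired, the block called 0 Leu and Ser sites too, and so did every other alternative, all chosen after seeing the data.

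The upstream minus downstream gap in tRNA-Leu-CAA-2-1 was -15.1 points in WT alone and -15.1 in the knockout alone, and in tRNA-Leu-CAA-4-1 -34.0 and -35.4, all at an exact sign-flip p of 0.25, the smallest 3 libraries can give. Without 1 library it ranged from -15.6 to -14.5 and from -37.2 to -32.7 points, at an exact sign-flip p of 0.0625. With the replicate block, same-numbered libraries averaged (an alternative chosen after seeing the data), the gaps were -15.1 and -34.7 points at an exact sign-flip p of 0.25. Fewer units end these calls by construction.

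The Leu mean difference of -0.217 points had its extremes over single libraries left out at -1.14 (WT replicate 3 removed) and 0.611 (WT replicate 2 removed), and was 0.0586 as a median over sites, so its direction is not settled. The Ser mean difference of 1.69 points turned to -0.237 without WT replicate 1, to -0.455 without the shallow tRNA-Ser-AGA-2-2 and to -0.381 as a median over sites. Leaving out 1 library turned the direction of the difference at 6 of the 16 sites and kept it at 10. Depth limits the upstream tRNA-Leu-CAA-4-1, tRNA-Leu-AAG-2-1 and tRNA-Ser-AGA-2-2 sites, all under 80 reads.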

Other observations

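Within same-numbered pairs of libraries, 6 of the 16 Leu and Ser sites moved in one direction in all 3 pairs, against 60 of 192 sites in the whole table. They were tRNA-Leu-AAG-1-3, tRNA-Leu-AAG-1-2 and tRNA-Leu-AAG-2-1, higher in the knockout in each pair, and tRNA-Leu-CAG-2-1, tRNA-Ser-CGA-1-1 and the downstream site of tRNA-Leu-CAA-4-1, lower in each. These sites were picked out after their values had been seen, and with replicate number as a block the quasi-binomial model gave unadjusted p of 0.0884 to 0.310 for them. The differences in the 3 tRNA-Leu-AAG-1-3 pairs were 0.0531, 0.112 and 0.172 points, at 263899 to 385732 reads per library, and those at tRNA-Leu-CAG-2-1 were -0.264, -3.18 and -0.334 points, of which the second rests on WT replicate 2.

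The level at the upstream tRNA-Leu-CAA sites differed between the genes, 77.5% for tRNA-Leu-CAA-2-1 and 61.0% for tRNA-Leu-CAA-4-1 on the mean of 6 libraries, with the lowest library of the former, 74.1%, above the highest of the latter, 73.0%. The downstream sites stood in the opposite order, 92.6% and 95.7%.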
